A study of Mus musculus with 4 samples.

Results

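The immunoglobulin heavy chain constant genes of the mouse are *Ighm*, *Ighd*, *Ighg3*, *Ighg1*, *Ighg2b*, *Ighg2c*, *Ighe* and *Igha*, given here in their order along the locus. The members were chosen by name, and their Ensembl identifiers were matched to the symbols of the GENCODE annotation. Of the 8 genes, 7 have a row under their identifier in that annotation among the 41214 genes of the count table. *Ighd*, which encodes the δ chain of IgD, was not analysed here. RNA-seq compared splenic B220+ cells from MIZ-1 WT mice with those from MIZ-1 △POZ mice, each genotype in 2 biological replicates and the cells unstimulated. MIZ-1 △POZ mice carry *Mb1 Cre* and the floxed *Miz-1 floxPOZ* allele, so that Cre removes the POZ domain of the transcription factor MIZ-1 (gene *Zbtb17*) and a truncated protein is made. The lines were bred onto C57BL/6, and the sources used here give an age range for the experiments as a whole but no age for these animals. *Mb1 Cre* is expressed from the *Cd79a* promoter, which is active from the early B lineage onward. The sample titles and the study's methods do not say whether MIZ-1 WT mice carry *Mb1 Cre* or the floxed allele. The part of the Cre allele in the values below was not tested. B220 selection also keeps other cells that carry B220, such as plasmacytoid dendritic cells, and it loses plasma cells that have shed B220. Counts on genes summed to 44452007 and 43026814 in libraries 1 and 2 of MIZ-1 WT and to 46387209 and 43214303 in libraries 1 and 2 of MIZ-1 △POZ.

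A heavy chain pairs its variable region with a constant region, and the constant region sets the isotype of the antibody or B cell receptor. Naive B cells transcribe *Ighm* and *Ighd* from the same rearranged allele. Class switch recombination then joins the variable region to an *Ighg*, *Ighe* or *Igha* gene farther along the locus and deletes what lay between. Each constant gene yields a membrane form, which serves as the receptor, and a secreted form, which plasma cells produce in bulk. Counts over all exons of a gene do not separate these forms. Nor do they separate transcripts of switched alleles from germline transcripts, which read through a constant gene without a variable exon. The genes downstream of *Ighd* are called class-switched genes below for brevity.

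The genotype labels were compared with the genes the design alters. *Zbtb17* was at 47.8 and 46.3 CPM (counts scaled by library size with TMM factors) in the MIZ-1 WT libraries and at 37.3 and 38.0 CPM in the MIZ-1 △POZ libraries, a log2 fold change of -0.32 (adjusted p = 0.00857 by the quasi-likelihood test of edgeR, adjusted after Benjamini-Hochberg, as for each edgeR value below). The count of this gene covers all its exons, so it does not show whether the POZ exons were lost. *Cd79a*, which encodes Igα of the B cell receptor and hosts the Cre allele, was at 336 and 311 CPM in MIZ-1 WT libraries and at 103 and 135 CPM in MIZ-1 △POZ. *Xist*, the RNA of the inactive X chromosome, stood at 1.12 and 1.43 CPM in MIZ-1 WT libraries and at 801 and 930.5 CPM in MIZ-1 △POZ. The Y-linked *Ddx3y* went the other way, with 363 and 354 CPM against 14.3 and 14.2 CPM. Of the 5 sex-linked genes listed, 1 was higher and 4 were lower. The libraries of each genotype therefore share a pattern of sex-linked RNA, and sex and genotype cannot be told apart for any value below.

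All 7 measured constant genes rose in MIZ-1 △POZ (adjusted p under 0.05 by the quasi-likelihood test of edgeR), against 21.1% of the 14554 tested genes that were higher (40.0% differed in either direction). Their median log2 fold change was 2.52, beside -0.01 over all tested genes. For each of the 7, both MIZ-1 △POZ libraries lay above both MIZ-1 WT libraries, as was the case for 37.2% of tested genes. *Ighm* had the smallest log2 fold change, also with any library left out. The largest was that of *Ighg2c*, but without MIZ-1 △POZ replicate 2 it stood at 2.89, below *Ighg1* (3.02) and *Ighg2b* (2.93). In RNA from a bulk of cells, more cells of a type and more RNA per cell cannot be told apart.

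*Ighm*, which encodes the μ chain of IgM, was by far the most abundant member. It had 4646 and 5981 CPM in MIZ-1 WT libraries and 11165 and 10354 CPM in MIZ-1 △POZ. The lowest MIZ-1 △POZ library was 1.73 times the highest MIZ-1 WT library, so the groups did not overlap. Its log2 fold change was 1.02, with a 95% confidence interval from 0.69 to 1.35 (adjusted p = 0.00378, edgeR). Of the tested genes, 1597 had a larger log2 fold change. By mean count *Ighm* ranked 6 among all genes in MIZ-1 WT libraries and 3 in MIZ-1 △POZ.

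**Figure D1:**
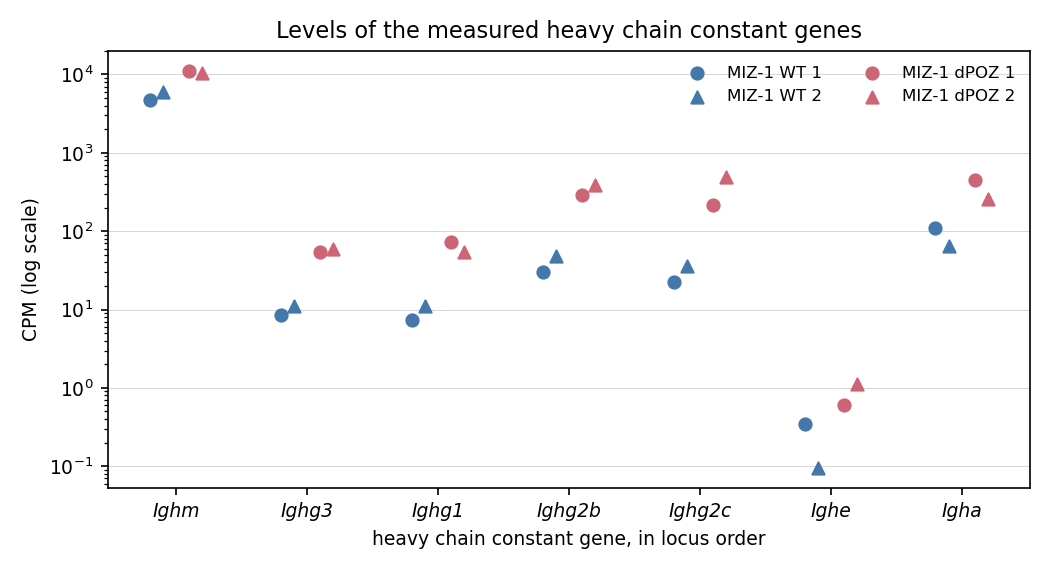
Level of each measured heavy chain constant gene in CPM on a log axis, in locus order, with a point for each library (blue, MIZ-1 WT; red, MIZ-1 △POZ, written MIZ-1 dPOZ in the legend; circles, replicate 1; triangles, replicate 2). For each of the 7 genes both red points lie above both blue points.

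The 4 *Ighg* genes encode the γ chains of the IgG subclasses. *Ighg2c*, which C57BL/6 mice carry in place of *Ighg2a*, had 22.1 and 36.1 CPM in MIZ-1 WT libraries and 214 and 490 CPM in MIZ-1 △POZ. The groups were 5.94-fold apart at their nearest libraries, but the MIZ-1 △POZ libraries themselves differed by 2.28 times, with library 2 the higher. The log2 fold change of *Ighg2c* was 3.60, with a 95% confidence interval from 2.48 to 4.71 (adjusted p = 0.00328, edgeR), and 20 tested genes had a larger one. Without MIZ-1 △POZ replicate 2 the value was 2.89, and without MIZ-1 △POZ replicate 1 it was 4.08. *Ighg2b* had 29.9 and 47.5 CPM in MIZ-1 WT libraries and 292 and 384 CPM in MIZ-1 △POZ. Its nearest libraries were 6.16-fold apart, the widest gap of the 7 members. Its log2 fold change was 3.13, from 2.52 to 3.73 by the 95% confidence interval (adjusted p = 0.00115, edgeR). IgG2b and IgG2c both engage activating Fcγ receptors and complement.

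*Ighg1*, whose isotype is typical of responses with interleukin 4, was at 7.27 and 10.9 CPM in MIZ-1 WT libraries and at 73.4 and 54.0 CPM in MIZ-1 △POZ. Both MIZ-1 △POZ libraries were at least 4.94-fold above the higher MIZ-1 WT library. The log2 fold change was 2.81, from 2.24 to 3.38 (adjusted p = 0.00129, edgeR). *Ighg3*, the first γ gene of the locus, encodes an isotype common in responses to carbohydrate antigens without T cell help. It was at 8.60 and 11.1 CPM in MIZ-1 WT libraries and at 54.1 and 58.4 CPM in MIZ-1 △POZ. The groups were 4.89-fold apart at their nearest libraries, the MIZ-1 △POZ libraries differed by only 1.08 times, and its standard error was the smallest of the 7 genes, at 0.13 on the log2 scale. The log2 fold change was 2.52, from 2.20 to 2.83 (adjusted p = 0.000739, edgeR).

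*Igha* encodes the α chain of IgA, the main antibody of mucosal surfaces. It had 110 and 64.9 CPM in MIZ-1 WT libraries and 454 and 260.0 CPM in MIZ-1 △POZ. Here library 1 was the higher within each genotype, by 1.70 times in MIZ-1 WT libraries and 1.75 times in MIZ-1 △POZ, and the groups were 2.36-fold apart at their nearest libraries. The log2 fold change was 2.03, from 1.19 to 2.86 (adjusted p = 0.00756, edgeR). *Ighe*, which encodes the ε chain of IgE, lay near the detection limit. It had 15 and 4 counts in MIZ-1 WT libraries and 29 and 49 counts in MIZ-1 △POZ, and it reached 10 counts in 3 of the 4 libraries. The groups did not overlap in CPM, but the nearest libraries were only 1.77-fold apart. Its log2 fold change of 1.94 had a 95% confidence interval from 0.47 to 3.41 (adjusted p = 0.0465, edgeR). The *Ighe* call was lost without MIZ-1 WT replicate 1 (3.14, adjusted p = 0.0524, edgeR), MIZ-1 WT replicate 2 (1.31, adjusted p = 0.156, edgeR) or MIZ-1 △POZ replicate 2 (1.46, adjusted p = 0.124, edgeR). DESeq2's Wald test did not call it either (1.97, adjusted p = 0.0523).

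Within a genotype the members did not move as a block. In MIZ-1 WT, *Ighm* and the 4 *Ighg* genes were higher in library 2, by between 1.29 and 1.63 times, whereas *Igha* and *Ighe* were higher in library 1. In MIZ-1 △POZ, *Ighg2c*, *Ighg2b*, *Ighg3* and *Ighe* were higher in library 2, and *Igha*, *Ighg1* and *Ighm* were higher in library 1. The largest such gap among genes with over 100 CPM was that of *Ighg2c* in MIZ-1 △POZ, at 1.19 on the log2 scale. The smallest in MIZ-1 △POZ were those of *Ighm* (0.11) and *Ighg3* (0.11 in size, with library 2 the higher). Profiles over the 4 libraries, taken as log2 CPM centred on each gene's mean, were closest for *Ighg3* and *Ighg1* (Euclidean distance 0.514) and next for *Ighg2b* and *Ighg2c* (0.673). They were farthest apart for *Ighm* and *Ighg2c*, at 2.66.

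The share of each isotype was taken over the summed counts of the 7 genes, which were 210433 and 258545 in MIZ-1 WT libraries and 583227 and 509161 in MIZ-1 △POZ. This sum made up 0.473% and 0.601% of all gene counts in MIZ-1 WT libraries and 1.26% and 1.18% in MIZ-1 △POZ. *Ighm* held 96.3% and 97.2% of the sum in MIZ-1 WT libraries and 91.1% and 89.2% in MIZ-1 △POZ. The class-switched genes together held 3.70% (95% Clopper-Pearson interval 3.62 to 3.78) and 2.77% (2.71 to 2.84) in MIZ-1 WT. They held 8.89% (8.81 to 8.96) and 10.8% (10.7 to 10.8) in MIZ-1 △POZ. These intervals cover counting error only, and the libraries of a genotype differed by more than that. The mean share was 3.04 times as high in MIZ-1 △POZ, a difference of 6.58 percentage points (exact permutation test, two-sided, p = 0.333, the smallest p that 2 libraries against 2 can give). The groups did not overlap. As a share of all gene counts, the class-switched genes stood at 0.0175% and 0.0167% in MIZ-1 WT libraries and at 0.112% and 0.127% in MIZ-1 △POZ.

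**Figure D2:**
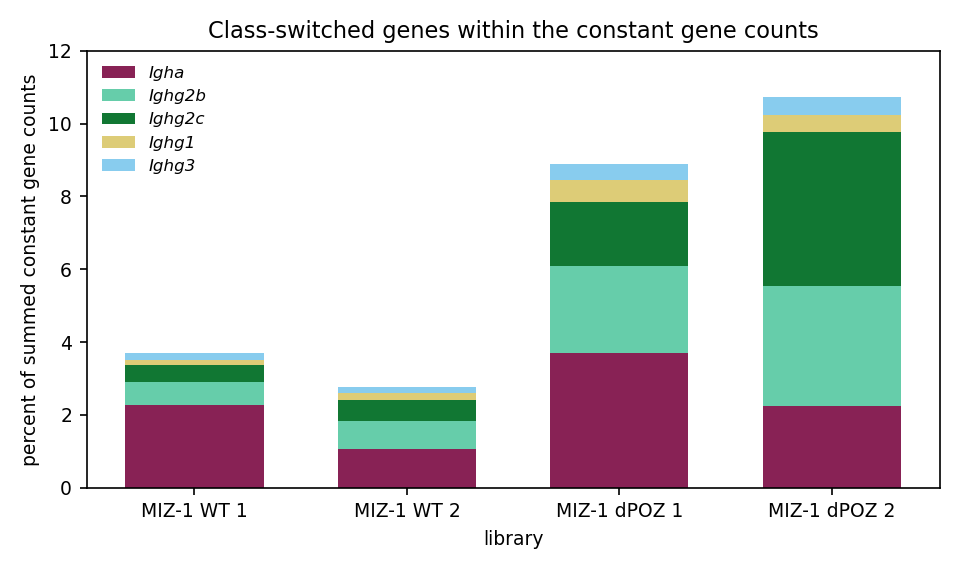
Share of the summed heavy chain constant gene counts taken by each class-switched gene, in percent, with a stacked bar for each library (MIZ-1 dPOZ stands for MIZ-1 △POZ; *Ighm* makes up the rest to 100%, and *Ighe*, at under 0.01%, is not drawn). The stacks reach 3.70% and 2.77% in MIZ-1 WT libraries and 8.89% and 10.8% in MIZ-1 △POZ.

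The γ genes and *Igha* were also set against *Ighm*. Relative to *Ighm* counts, those of *Ighg2c* were 0.477% and 0.604% in MIZ-1 WT libraries and 1.92% and 4.73% in MIZ-1 △POZ. Those of *Ighg2b* were 0.643% and 0.794% in MIZ-1 WT libraries and 2.62% and 3.71% in MIZ-1 △POZ. The ratio to *Ighm* was 5.62 times as high in MIZ-1 △POZ for *Ighg2c*, 4.36 times for *Ighg2b*, 3.46 times for *Ighg1* and 2.83 times for *Ighg3*, by the mean of log2 ratios. This order was not tested and rests on MIZ-1 △POZ library 2. Without it the values were 3.58 for *Ighg2c*, 3.66 for *Ighg2b*, 3.89 for *Ighg1* and 2.62 for *Ighg3*, and without MIZ-1 △POZ replicate 1 that of *Ighg2c* was 8.82. The groups did not overlap for any of these 4 ratios (exact permutation p = 0.333 for each, the smallest possible). *Igha* counts were 2.37% and 1.09% of those of *Ighm* in MIZ-1 WT libraries and 4.07% and 2.51% in MIZ-1 △POZ, 1.99 times as high (1.35 to 2.94 with a library left out). The lowest MIZ-1 △POZ ratio of *Igha* lay just above the highest MIZ-1 WT ratio. As shares of the sum, *Igha* overlapped between genotypes, with 2.28% and 1.06% in MIZ-1 WT libraries and 3.71% and 2.24% in MIZ-1 △POZ (exact permutation p = 0.667). The ratio of *Ighe* to *Ighm* overlapped as well (exact permutation p = 0.667).

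Among the class-switched counts, the *Ighg* genes held 38.1% and 61.9% in MIZ-1 WT libraries and 58.2% and 79.1% in MIZ-1 △POZ, with nearly all of the rest on *Igha*. The genotypes overlapped, and a difference in the balance of IgG and IgA was not shown (exact permutation p = 0.667). Within the *Ighg* counts, *Ighg2b* held 44.0% and 45.0% in MIZ-1 WT libraries and 46.1% and 38.9% in MIZ-1 △POZ. *Ighg2c* held 32.6%, 34.2% and 33.8% in MIZ-1 WT libraries 1 and 2 and MIZ-1 △POZ library 1, but 49.7% in MIZ-1 △POZ library 2. *Ighg1* held 10.7% and 10.4% in MIZ-1 WT libraries, and 11.6% and then 5.48% in those of MIZ-1 △POZ. For these 3 genes MIZ-1 △POZ library 1 lay near the MIZ-1 WT libraries and library 2 stood apart. *Ighg3* was the exception, with 12.7% and 10.5% in MIZ-1 WT libraries and 8.52% and 5.92% in MIZ-1 △POZ, where the groups did not overlap (exact permutation p = 0.333, the smallest possible).

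Levels of different genes were compared as CPM per kilobase of merged exon length, which ran from 1326 bases for *Ighg2c* to 2678 bases for *Ighg2b* in the annotation used here. The release behind the deposited counts is not given in the sources used here, and the annotated tails of the membrane forms differ in length between genes, so this order is approximate. In MIZ-1 WT the mean order was *Ighm* (2817 CPM per kilobase), *Igha* (32.8), *Ighg2c* (22.0), *Ighg2b* (14.4), *Ighg3* (3.91), *Ighg1* (3.51) and *Ighe* (0.139). Within MIZ-1 WT libraries, *Igha* lay above *Ighg2c* in library 1 (41.3 against 16.7) and below it in library 2 (24.3 against 27.2). *Ighg3* lay above *Ighg1* in both, by little in library 2 (4.40 against 4.22). *Ighg2c* lay above *Ighg2b* in every library of both genotypes. In MIZ-1 △POZ the mean order was *Ighm* (5705 CPM per kilobase), *Ighg2c* (266), *Igha* (134), *Ighg2b* (126), *Ighg1* (24.6), *Ighg3* (22.4) and *Ighe* (0.544). There the order of *Ighg2c* and *Igha*, of *Igha* and *Ighg2b*, and of *Ighg1* and *Ighg3* was reversed between the libraries. In both genotypes *Ighg2b* and *Ighg2c* lay above *Ighg1* and *Ighg3* in every library.

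The 8 genes lie on the minus strand of chromosome 12 from 113254830 to 113422730 (GRCm38), a stretch of 168 kb with *Ighm* at its 5′ end and *Igha* at its 3′ end. From *Ighg3* through *Ighg1* and *Ighg2b* to *Ighg2c* the log2 fold changes went 2.52, 2.81, 3.13 and 3.60 in locus order. This order rests on MIZ-1 △POZ library 2: without it the values were 2.47, 3.02, 2.93 and 2.89. Without MIZ-1 △POZ replicate 1 *Ighg3* and *Ighg1* were both at 2.57. The confidence intervals overlap, and the trend was not tested. *Ighe* and *Igha*, which follow, were lower than *Ighg2c* by estimate.

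**Figure D3:**
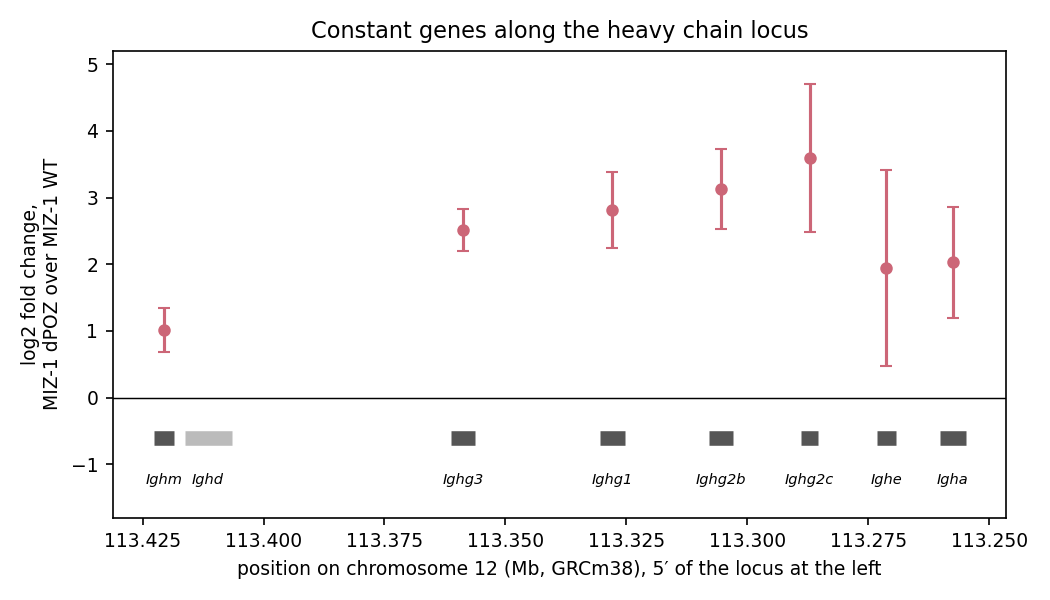
Log2 fold change of each measured constant gene (red points, MIZ-1 △POZ over MIZ-1 WT, bars for 95% confidence intervals from edgeR) above its place on chromosome 12 in GRCm38, drawn with the 5′ end of the locus at the left. Dark boxes are the 7 measured genes and the light box is *Ighd*. Values run from 1.02 at *Ighm* to 3.60 at *Ighg2c*.

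Reads that fit more than a single γ gene can be lost or misplaced, so the likeness of these genes was measured. The coding stretches of the secreted forms were 86.3% identical between *Ighg2b* and *Ighg2c* over aligned bases and from 76.1% to 78.7% identical for the other pairs of *Ighg* genes. Of all 50-base windows in the annotated transcripts, a length matched to the sequenced reads, 5.49% in *Ighg2c*, 4.15% in *Ighg2b*, 1.58% in *Ighg3* and 0.393% in *Ighg1* also occur in another gene's transcripts. None of the windows of *Ighm*, *Ighe* and *Igha* does. The longest coding run shared by *Ighg2b* and *Ighg2c* is 78 bases long and lies in exon 3, at chr12:113306869-113306946 in *Ighg2b* and chr12:113287869-113287946 in *Ighg2c* (GRCm38, minus strand). It is shown because counts of these 2 genes are least certain there, and the capitals mark the 41 bases that *Ighg3* shares as well.
Ighg2b and Ighg2c, exon 3: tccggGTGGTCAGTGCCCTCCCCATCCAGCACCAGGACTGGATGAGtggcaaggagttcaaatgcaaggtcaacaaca

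The hinge exon, exon 2 of each *Ighg* gene, is where the subclasses differ most visibly, and no 50-base window that touches it occurs in another gene's transcripts. It links the antigen-binding arms to the stem of the antibody, and its cysteines bond the heavy chains to each other. The exons lie at chr12:113360529-113360576 for *Ighg3*, chr12:113329844-113329882 for *Ighg1*, chr12:113307261-113307326 for *Ighg2b* and chr12:113288263-113288325 for *Ighg2c* (GRCm38, minus strand). They are shown 5′ to 3′ with in-frame cysteine codons in capitals, of which *Ighg3* has 1, *Ighg1* and *Ighg2b* have 4 each and *Ighg2c* has 3.
Ighg3 hinge: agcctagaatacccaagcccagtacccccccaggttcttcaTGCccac
Ighg1 hinge: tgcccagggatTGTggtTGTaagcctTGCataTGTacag
Ighg2b hinge: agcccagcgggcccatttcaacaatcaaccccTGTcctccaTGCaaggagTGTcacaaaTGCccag
Ighg2c hinge: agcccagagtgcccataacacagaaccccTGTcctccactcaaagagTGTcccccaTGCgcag

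The rest of the antibody RNA was set beside the members. The 104 *Ighv* segments of the table, which encode heavy chain variable regions, summed to 699 and 854 CPM in MIZ-1 WT libraries and to 1770 and 1665 CPM in MIZ-1 △POZ. This sum was higher by 1.14 on the log2 scale, close to the 1.12 of the summed constant genes. *Igkc*, the constant gene of κ light chains, had a log2 fold change of 0.83 (adjusted p = 0.00587, edgeR), and *Iglc2*, of the λ light chains, of -0.35 (adjusted p = 0.00528, edgeR). Genes with the pattern most like that of *Ighm*, by the distance between centred log2 CPM profiles over 4 libraries among 8769 genes, were *Snrnp25* (0.0614), *Serpina3g* (0.0715), *Ahr* (0.101), *Hist1h4j* (0.125) and *Ppl* (0.138). No gene lay as close to *Igha*, for which the nearest were *Esco2* (0.502), *Abca9* (0.536), *Cenpf* (0.539), *Bub1* (0.552) and *Shcbp1* (0.561). With 4 libraries in 2 groups, such closeness mostly reflects a like difference between genotypes.

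Of the 17 listed partners of the heavy chain in the receptor and in its assembly, 11 were tested, of which 4 were higher and 5 lower, with a median of -0.01. Beside this list and those below stand 21.1% higher and 18.9% lower over all tested genes. *Cd79b*, the most abundant, encodes Igβ and went from 2032 and 2069 CPM in MIZ-1 WT to 1709 and 1795 CPM in MIZ-1 △POZ. *Cd79a* had the lowest log2 fold change of the list, -1.44 (adjusted p = 0.00157, edgeR). *Mzb1*, an endoplasmic reticulum factor that helps IgM assemble and be secreted, rose from 145 and 138 CPM to 236 and 233 CPM, a log2 fold change of 0.73 (adjusted p = 0.000803, edgeR). *Erp44* (0.49 on the log2 scale), which retains unassembled IgM, and *Bcap29* (0.87) rose as well. Without MIZ-1 WT replicate 1 or 2, 3 genes of the list were called lower, and with pan-B scaling 6 were higher and 2 lower. The listed *Iglc1*, *Iglc3*, *Iglc4*, *Igll1*, *Vpreb1* and *Vpreb2* were not tested.

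The 24 transcription factors listed for the heavy chain locus moved mostly down, with 15 lower and 1 higher and a median of -0.24. With libraries scaled to the pan-B genes instead, which moved the median of all tested genes from -0.01 to 0.25, 7 of these factors were lower and 6 higher and their median was 0.02. *Pou2af1*, the coactivator OBF-1 of octamer-binding factors, was the exception under TMM scaling. It had 489 and 518 CPM in MIZ-1 WT libraries and 729 and 749 CPM in MIZ-1 △POZ (log2 fold change 0.55, adjusted p = 0.00176, edgeR). With a filter at 30 RPM on average, 2 factors were called higher. *Bcl11a* (log2 fold change -0.88), *Cux1* (-0.69) and *Ebf1* (-0.48) fell under TMM scaling. *Ets1*, the most abundant of the list, had a log2 fold change of -0.22 and was not called (adjusted p = 0.0723, edgeR). Calls of lower factors numbered 4 without MIZ-1 WT replicate 1 and 7 without MIZ-1 WT replicate 2.

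Of 12 genes that process heavy chain RNA, 5 were higher and 3 lower, with a median of 0.02. *Ell2*, an elongation factor that favours the secreted form in plasma cells, rose from 37.5 and 40.6 CPM to 55.9 and 52.8 CPM (log2 fold change 0.48, adjusted p = 0.00462, edgeR). *Tent5c*, a poly(A) polymerase that acts on immunoglobulin mRNA, rose more, from 17.7 and 24.5 CPM to 84.4 and 79.4 CPM (log2 fold change 1.96, adjusted p = 0.00108, edgeR). *Zfp318*, which is needed for the long transcript that yields IgD, fell from 340 and 386 CPM to 179 and 214 CPM (log2 fold change -0.89, adjusted p = 0.00264, edgeR), while *Ighd* itself was not analysed here. *Pcf11* (log2 fold change -0.33) and *Hnrnph1* (-0.22), the most abundant, fell too. With pan-B scaling 6 genes of this list were higher and 1 lower. With DESeq2's Wald test or no filter on counts 3 of them were higher, as also without MIZ-1 WT replicate 1 or 2 or MIZ-1 △POZ replicate 2.

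The class switch machinery was measured for all 31 listed genes, of which 8 were higher and 3 lower, with a median of -0.01. Over all tested genes 21.1% were higher and 18.9% lower. With pan-B scaling 6049 of the 14554 tested genes were higher and 760 lower. *H2afx*, a histone that marks broken DNA, had a log2 fold change of 1.40, and *Exo1*, a mismatch repair nuclease, of 1.14. *Rif1*, which protects broken ends, fell by 0.29 on the log2 scale. *Parp1*, the most abundant, had a log2 fold change of -0.11 and was not called (adjusted p = 0.0959, edgeR). Without MIZ-1 WT replicate 1 or 2, 3 genes of the list were called higher, 5 were without MIZ-1 △POZ replicate 1, and with pan-B scaling 19 were higher and 0 lower.

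Of 19 receptors and factors that carry switch signals, 8 were higher and 7 lower, with a median of 0.17. *Il4ra*, the interleukin 4 receptor chain, was the most abundant and fell from 540 and 568 CPM to 339 and 358 CPM (log2 fold change -0.67, adjusted p = 0.00121, edgeR), and *Stat6*, which acts behind it, fell by 0.49 on the log2 scale. *Tlr7*, a receptor for single-stranded RNA, rose by 0.85, and *Smad3*, which carries signals of TGFβ, by 0.70. The calls fell to 2 higher and 3 lower without MIZ-1 WT replicate 1, to 4 and 4 without MIZ-1 WT replicate 2, and to 5 higher without MIZ-1 △POZ replicate 1. With pan-B scaling 11 were higher and 2 lower.

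Plasma cell genes were higher in 15 of 17 cases and lower in 0, with a median of 0.62. *Jchain*, whose product joins the chains of polymeric IgM and IgA, was the most abundant, with 302 and 616 CPM in MIZ-1 WT libraries and 1948 and 1787 CPM in those of MIZ-1 △POZ. By log2 fold change it stood at 2.02 (adjusted p = 0.00616, edgeR), and like *Ighm* it was higher in library 2 of MIZ-1 WT and in library 1 of MIZ-1 △POZ. *Prdm1*, which encodes Blimp-1, had 6.24 and 6.83 CPM against 17.4 and 17.0 CPM. *Tnfrsf17*, the receptor BCMA of plasma cells, had 0.596 and 0.761 CPM against 3.82 and 4.06 CPM. The summed level of the list was 1378 and 1767 CPM in MIZ-1 WT libraries and 3522 and 3336.5 CPM in MIZ-1 △POZ. *Irf4* and *Slamf7* were not called. The part of these genes in the higher constant gene levels was not tested.

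Germinal center B cell genes had the highest median of the B cell lists, 2.51, with 9 of 10 higher and 1 lower. *Gcsam* was at 3.69 and 5.45 CPM in MIZ-1 WT libraries and at 26.5 and 29.2 CPM in MIZ-1 △POZ, and *S1pr2*, a receptor that holds cells in the germinal center, at 4.10 and 5.71 against 34.9 and 26.2 CPM. *Bcl6*, the repressor that defines germinal center B cells and the most abundant gene of the list, fell instead, from 114 and 105 CPM to 42.7 and 43.0 CPM (log2 fold change -1.36, adjusted p = 0.000682, edgeR). The list summed to 181 and 188 CPM in MIZ-1 WT libraries and to 372 and 302 CPM in MIZ-1 △POZ. Memory B cell genes were higher for 4 of 5, with a median of 0.71, led by the abundant *Cd44* (0.69) and by *Cd80* (1.04), *Nt5e* (2.05) and *Cd86* (0.71). *Nt5e*, the ectoenzyme CD73, had 4.95 and 9.11 CPM against 36.6 and 21.7 CPM. The part of either list in the constant gene levels was not tested.

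Follicular B cell genes were lower in 4 of 6 cases, with a median of -0.63 and with *Klf2* (-0.92), *Zfp318* (-0.89), *Fcer2a* (-0.74) and *Ccr7* (-0.51) called. Marginal zone B cell genes were higher in 7 of 9 cases, with a median of 0.67, among them *Asb2* (1.82), *Cd9* (1.23), *Cd36* (0.90), *Cd1d1* (0.67) and the most abundant, *Cr2* (0.25). Of 6 B-1 cell genes 3 were higher, *Ctla4* (1.15), *Zbtb32* (0.90) and *Bhlhe41* (0.59), with a median of 0.43 and with *Spn* most abundant and not called (0.10). The B-1 count was 1 without MIZ-1 WT replicate 1 or 2. Transitional B cell genes were lower in 6 of 7 tested, with a median of -0.71, including *Sox4* (-1.69), *Cd93* (-1.13), *Vpreb3* (-0.71), *Myb* (-0.62) and the most abundant, *Cd24a* (-0.33). Pan-B genes were lower in 8 of 10 cases, with a median of -0.26. *Ms4a1*, the most abundant, had 3821 and 4013 CPM in MIZ-1 WT libraries and 3309 and 3370 CPM in MIZ-1 △POZ, and *Cd37* (-0.53), *Pax5* (-0.46) and *Fcrla* (-0.44) fell as well. Without MIZ-1 WT replicate 1 or 2, 2 pan-B genes were called lower, and when they set the scaling 2 were lower and 1 higher. IgM and the switched isotypes are known to differ between these subsets, and their part in the constant gene levels was not tested.

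Markers of other cells that the selection could keep were counted in each library. Macrophage markers were higher in 18 of 18 cases, with a median of 1.98, and summed to 983 and 1311 CPM in MIZ-1 WT libraries and to 5865 and 3670 CPM in MIZ-1 △POZ. *Vcam1* was the most abundant, with 265 and 345 CPM against 1515 and 899 CPM, and *Siglec1* (3.50 on the log2 scale), *Axl* (2.10), *Csf1r* (1.97) and *Cd68* (1.67) had the smallest p. The summed macrophage level was higher in library 2 of MIZ-1 WT and in library 1 of MIZ-1 △POZ, the order also seen in *Ighm* and *Ighg1*, but not in *Ighg2b*, *Ighg2c*, *Ighg3* or *Igha*. No listed macrophage marker was at 0 in all libraries, and their part in the constant gene levels was not tested.

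The remaining lists were low. T cell genes, of which 1 of 14 was higher (*Cd4*, 1.05), had a median of 0.02 and summed to 90.8 and 66.7 CPM in MIZ-1 WT libraries and to 83.0 and 88.2 CPM in MIZ-1 △POZ, with *Lck* most abundant. NK cell genes had 2 of 7 higher (*Prf1*, 0.81, and *Klrk1*, 0.29), a median of 0.11 and sums of 57.4, 54.7, 61.4 and 67.4 CPM in the MIZ-1 WT and then the MIZ-1 △POZ libraries, with *Gzma* most abundant. Neutrophil genes, 6 of 9 of which were tested, had 2 higher (*Ltf*, 3.10, and *Retnlg*, 1.99) and a median of 1.75. Their sums were 13.8, 4.24, 8.49 and 16.6 CPM in that order, with *S100a9* most abundant. The neutrophil count was 1 under DESeq2's Wald test and 4 with pan-B scaling. Plasmacytoid dendritic cell genes had 0 of 6 called, a median of 0.02 and sums of 147, 127, 175 and 122 CPM, with *Bst2* most abundant. Conventional dendritic cell genes had 4 of 8 higher, among them *Itgax* (1.16), *Zbtb46* (1.18) and *Flt3* (0.74), and 1 lower (*Cd209a*, -1.35), with a median of 0.86 and sums of 40.6, 41.4, 71.5 and 53.1 CPM. Erythroid genes had 1 of 9 higher (*Epor*, 2.20), a median of 0.64 and sums of 50.6, 63.0, 43.3 and 119.9 CPM, with *Hbb-bs* most abundant. Without MIZ-1 △POZ replicate 1, where the erythroid sum was lowest, 8 erythroid genes and 4 neutrophil genes were called higher. Without MIZ-1 WT replicate 1, 2 conventional dendritic genes and 0 neutrophil genes were. The NK cell count was 1 without MIZ-1 WT replicate 1 or 2 or MIZ-1 △POZ replicate 1, with no filter on counts and under DESeq2's Wald test. Plasmacytoid dendritic cell genes turned with the library left out, with 2 called higher without MIZ-1 △POZ replicate 2 and 2 called lower without MIZ-1 △POZ replicate 1. The part of these cells in the constant gene levels was not tested.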

How the data were processed

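Ribosomal RNA was depleted and stranded paired-end libraries of B220+ splenocytes were sequenced. The authors trimmed the reads with Trimmomatic, mapped them to GRCm38 with TopHat2 (version 2.1.0 in the submitters' processing notes), counted them per Ensembl gene with HTSeq and deposited raw counts. The strand setting and the Ensembl release are not given in the sources used here. In GENCODE M21, which also gave symbols to 40254 of the 41214 genes and the transcript sequences, no gene of either strand overlaps a member. HTSeq's summary lines were left out of library sizes: reads outside genes were 27.2% and 25.5% of the table in the MIZ-1 WT libraries and 21.6% and 21.1% in the MIZ-1 △POZ libraries, which do not overlap and whose part in the results was not tested, ambiguous reads 0.281% to 0.302% and reads without a unique alignment 42.8% to 44.1%.

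The 14554 genes that reached 10 counts in 2 or more libraries entered edgeR 4.0.16 in R 4.3.3 (TMM scaling, quasi-likelihood test, Benjamini-Hochberg adjustment over all tested genes, threshold 0.05). Shares were compared by exact permutation over the 4 libraries. The procedure was tested on simulated counts. Alternatives were DESeq2's size factors, DESeq2 1.42.0's Wald test, no filter, a filter at 30 RPM on average, the replicate number as block, removal of 192 tested immunoglobulin segments other than the members, scaling by the summed counts of 10 pan-B genes, counts per kilobase for shares, and leaving out each replicate. A lone library was then assumed to vary like the other genotype's. Ratios of *Ighd* could not be run.

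The members and lists were chosen with earlier results of these data known. Genes named were the members, the most abundant gene of each list, up to 4 called genes of each list with the smallest p whose genotypes did not overlap, not all of which are printed, *Zbtb17* and *Cd79a*, and the 5 genes nearest in profile to *Ighm* and to the most abundant other member among genes with a mean of at least 10 CPM, variable segments passed over. *Igkc*, *Iglc2*, *Irf4*, *Slamf7* and the untested list members were named outside this rule, after their values were seen.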

Additional observations from a re-analysis of the deposited data

How the results depend on the processing

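For *Ighm*, *Ighg3*, *Ighg1*, *Ighg2b*, *Ighg2c* and *Igha* the direction and the call held in all 11 alternatives, including each library left out. Over the 7 alternatives that keep all libraries, log2 fold changes ran from 1.01 to 1.27 for *Ighm* and from 3.52 to 3.84 for *Ighg2c*, and with a library left out *Ighg2c* ran from 2.89 to 4.08 and *Igha* from 1.57 to 2.46. *Ighe* did not pass the filter at 30 RPM on average. With DESeq2's Wald test it was no longer called (1.97, adjusted p = 0.0523) nor with a replicate block (1.93, adjusted p = 0.0731, edgeR), and with a library left out it ran from 1.31 to 3.14 (adjusted p from 0.0235 to 0.156, edgeR). The sources used here do not pair libraries by replicate number. Deviations of same-numbered libraries from their group means correlated at -0.07 over genes, which alone cannot decide whether they were paired. With the replicate block the standard errors of *Ighm*, *Ighg3*, *Ighg2b*, *Ighg2c* and *Igha* fell, that of *Igha* from 0.34 to 0.06. Those of *Ighg1* and *Ighe* rose. The replicate block called 4732 genes in place of 5822. With this block 5 switch signal genes, 3 RNA processing genes, 1 NK cell gene, 1 neutrophil gene and 1 plasmacytoid dendritic cell gene were higher. Scaling by pan-B genes gave 6049 genes higher and 760 lower (88.8% higher), against 3076 and 2746 (52.8%). The 30 RPM filter left 2746 calls, and leaving out MIZ-1 WT replicate 1 or 2 left 2204 and 2825. Of 462 list counts under alternatives, 389 were within 1.5 times the value given. Counts of 0 that stayed at 0 are among these, so the figure overstates how far the other counts held. With the 30 RPM filter, which removes low genes, germinal center, plasma cell and transitional counts went to 1, 9 and 1. Switch signals called lower went to 4 and memory genes called higher to 2. Under this filter 0 genes of the B-1, T cell, NK cell, neutrophil, conventional dendritic and erythroid lists were called higher, and 0 conventional dendritic genes lower. The gain in class-switched share was 6.47 percentage points per kilobase and ran from 5.65 to 7.52 with a library left out. Chosen after seeing the data, a fit with *Ighm* counts as library factor put the other 6 genes from 0.90 to 2.62 above *Ighm* on the log2 scale; its p-values are not given, since the noise of 1 gene enters every factor. With 2 libraries a genotype, no share could reach p under 0.333 (exact permutation), and *Ighe* was near the detection limit.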
